A study of Mus musculus with 8 samples.

Results

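Genes of insulin and insulin-like growth factor (IGF) signalling, 10 in all, were followed in fasted mouse muscle with and without the mitochondrial thioesterase Acot2. They were picked by symbol and comprised the ligands Igf1 and Igf2, the receptors Igf1r and Insr, the receptor substrates Irs1 and Irs2, the kinase Akt2 and the binding proteins Igfbp3, Igfbp4 and Igfbp5. All 10 symbols were found among the 54091 gene rows of the table. The study sequenced RNA of white quadriceps, a muscle built mostly of fast glycolytic fibres, and its title places Acot2 in fat oxidation that depends on lipid supply. Acot2 muscle knockout mice (4 libraries, numbered 5 to 8) carried floxed Acot2 together with Cre recombinase driven by the muscle creatine kinase (CKM) promoter. Floxed control mice (4 libraries, numbered 1 to 4) carried Loxp/Loxp alleles without Cre. All mice were males aged 11 to 14 weeks and had fasted for 14 h overnight before tissue was taken in the morning. CKM Cre acts in muscle fibres, so cells between the fibres keep the gene, and no mice with Cre alone were analysed here. The muscle is a mixture of cell types, in which fewer cells of a type and less RNA per cell cannot be told apart.

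Insulin and the IGFs are related hormones that bind related receptor tyrosine kinases. An activated receptor phosphorylates IRS proteins, which recruit phosphatidylinositol 3-kinase and so switch on AKT. In muscle, AKT2 drives glucose uptake through the transporter GLUT4 and glycogen storage, while AKT signalling in general favours protein synthesis through mTORC1 and holds FOXO transcription factors out of the nucleus. Insulin falls in a fast, FOXO factors become active, and they are known to raise transcription of the insulin receptor gene. IGF-binding proteins hold IGFs in blood and tissue and can either restrain them or deliver them to the receptor.

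Libraries held 28659632 to 38612914 reads on genes in knockouts and 32282222 to 40977866 in floxed controls. Values below are normalized counts, which are read counts divided by a size factor per library, and each difference is the knockout mean minus the floxed control mean of log2(normalized count + 1), with its standard error (SE) in limma. Acot2 itself averaged 467 ± 130 normalized counts in knockouts and 2406 ± 1099 in floxed controls (SD, n = 4 each), and no knockout reached any floxed control. Genes of fast glycolytic fibres summed to 3627942 to 5862287 normalized counts in knockouts and 4549980 to 5370486 in floxed controls. Genes of oxidative fibres summed to 20533 to 103169 in knockouts and 11034 to 39199 in floxed controls. The fast-fibre sum was thus the larger in every library, and the tissue label names white quadriceps. The lists hold different genes, so the sums do not give the share of each fibre type. Knockout 5 lay nearer to the floxed controls than to the other knockouts in a chi-square of reads over genes, per degree of freedom. Genes with many reads, such as titin, weigh most in this measure. Knockout 5 differed by 20.0 to 37.7 from the floxed controls and by 85.0 to 147 from the other knockouts. Its nearest library was floxed control 4, the closest pair of all 8, while its Acot2 value of 413 normalized counts was below every floxed control (1530 to 3927). Without knockout 5, 2200 of all tested genes had an unadjusted limma p under 0.05, against 810 with it, and 0 were called after adjustment in either case. Knockout 6 stood apart in the markers of satellite cells and regenerating muscle, at 5574 normalized counts against 605 to 663 in the other knockouts and 569 to 679 in floxed controls. Most of that sum was the embryonic and perinatal myosins Myh3 (2526 in knockout 6) and Myh8 (2412).

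The starts of 3 of these genes are shown here, because both substrate genes carry the same 7-letter element close to their start and the receptor gene Igf1r does not. Each sequence is the 250 bases before the start annotated by RefSeq on GRCm38.p6, on the strand of the gene. Capitals mark GGGCGG, the GC box bound by SP1, and CAAAACA, a form of the insulin response sequence known from FOXO-regulated genes, on either strand; CAAAACA appears here as its complement TGTTTTG.
Igf1r, plus strand, chr7:67952007-67952256: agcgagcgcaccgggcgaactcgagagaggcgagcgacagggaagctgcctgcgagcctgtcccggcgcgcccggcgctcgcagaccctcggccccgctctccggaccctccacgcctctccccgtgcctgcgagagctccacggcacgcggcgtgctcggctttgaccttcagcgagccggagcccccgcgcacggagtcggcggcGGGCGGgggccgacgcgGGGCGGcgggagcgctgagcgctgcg
Irs1, minus strand, chr1:82291440-82291689: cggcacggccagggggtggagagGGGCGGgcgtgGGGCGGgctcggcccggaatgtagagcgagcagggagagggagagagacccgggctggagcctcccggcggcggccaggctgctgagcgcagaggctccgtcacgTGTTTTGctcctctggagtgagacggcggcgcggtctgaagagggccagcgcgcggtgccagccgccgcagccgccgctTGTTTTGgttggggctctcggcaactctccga
Irs2, minus strand, chr8:11008930-11009179: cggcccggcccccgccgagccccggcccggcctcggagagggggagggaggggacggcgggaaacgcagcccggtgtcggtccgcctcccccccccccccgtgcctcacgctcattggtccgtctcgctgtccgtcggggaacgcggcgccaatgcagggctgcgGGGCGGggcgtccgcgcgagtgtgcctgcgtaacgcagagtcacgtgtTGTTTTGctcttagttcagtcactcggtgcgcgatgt

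The element CAAAACA began 111 and 32 bases before the start of Irs1 and 37 bases before the start of Irs2. On either strand it is present in 5.56% of all 32851 promoter windows of this length. The GC box is present in 32.7% of windows, and Igf1r, Irs1 and Irs2 held 2, 2 and 1. These 3 windows were rich in G and C, at 77.6%, 72.4% and 72.8%, against a median of 52.4% over all windows. Windows were at hand for 9 of the 10 genes, 15 windows in all, and the gene without a window was Insr. The window of Igf1 and the second of Igf2 lay wholly within annotated exons. Outside Irs1 and Irs2 no window held CAAAACA. The FOXO core GTAAACA was in none of the 15 (3.17% of all windows), and the STAT element TTCNNNGAA was in 1 of the 4 windows of Akt2 (7.02% of all windows). TATAAA occurred once, 28 bases before the start of Igfbp4 (12.4% of all windows). A match of letters is no evidence that a factor binds there.

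The level of the 10 genes, as normalized counts per kb of annotated exon, ran over about 3 orders from the kinase to the second ligand. Akt2 was highest, at 1073 ± 102 per kb (SD, n = 8), and its lowest library (955) lay above every library of Irs1 (465 to 908). Irs1 (619 ± 132), Insr (501 ± 45.3), Igfbp5 (495 ± 113) and Irs2 (431 ± 90.8) came next and overlapped each other. Igfbp3 (268 ± 74.9) and Igfbp4 (214.5 ± 36.7) overlapped as neighbours, and Igfbp4 lay above Igf1r (101 ± 21.3) in every library. Insulin receptor transcript thus lay above IGF1 receptor transcript per kb in all 8 libraries, at 435 to 544 against 74.5 to 128. Igf1 (60.6 ± 12.6) overlapped Igf1r, and Igf2 was listed at 0 to 3.05. The length is that of all annotated exons joined, so a muscle that uses shorter transcripts of a gene has a higher true level per kb.

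**Figure D1:**
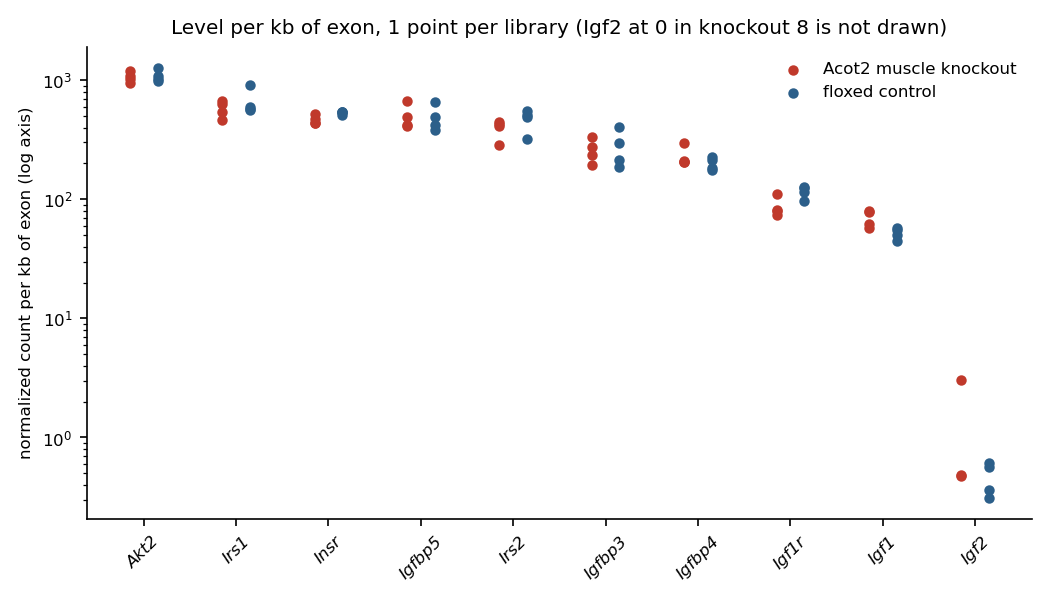
Normalized count per kb of exon on a log axis for each of the 10 genes, ordered by mean, with 1 point per library (red, Acot2 muscle knockout; blue, floxed control). Akt2 lay at 955 to 1255, Igf1 at 44.6 to 80.3 and Igf2 at no more than 3.05.

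Knockout muscle had more Igf1 transcript and less transcript of both receptors, but none of these differences passed a test corrected for all genes. Of the 9 genes tested, Igf1 was higher (difference 0.41), and Igf1r (-0.43) and Insr (-0.19) were lower, each at an unadjusted limma p under 0.05. The substrates and Akt2 had lower mean values, Igfbp4 a higher one, and Igfbp3 and Igfbp5 nearly equal ones. By limma with Benjamini-Hochberg adjustment over 13141 genes, 0 of the 9 were called, as were 0% of all tested genes (also 0 with voom, and 1 of 25596 without the filter on low values). At an unadjusted p under 0.05 the count was 3 of 9 (33.3%), against 6.16% of all tested genes, and with limma's voom on recovered reads it was the same 3 genes and 755 of all genes. Over all tested genes the unadjusted count was 324 higher and 486 lower, or 491 and 248 with libraries scaled to equal totals, and 435 and 368 with equal upper quartiles. Of the 9, 6 had a lower mean log2 value in knockouts, against 49.4% of all tested genes. Groups did not overlap for 1 of the 9, which was higher, against 2.75% of all tested genes in either direction and 1.62% in the lower one. The 9 genes had a median difference of -0.044, and all tested genes one of 0.0031. The genes were chosen with earlier results of these data known, so a share above the background is a description.

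**Figure D2:**
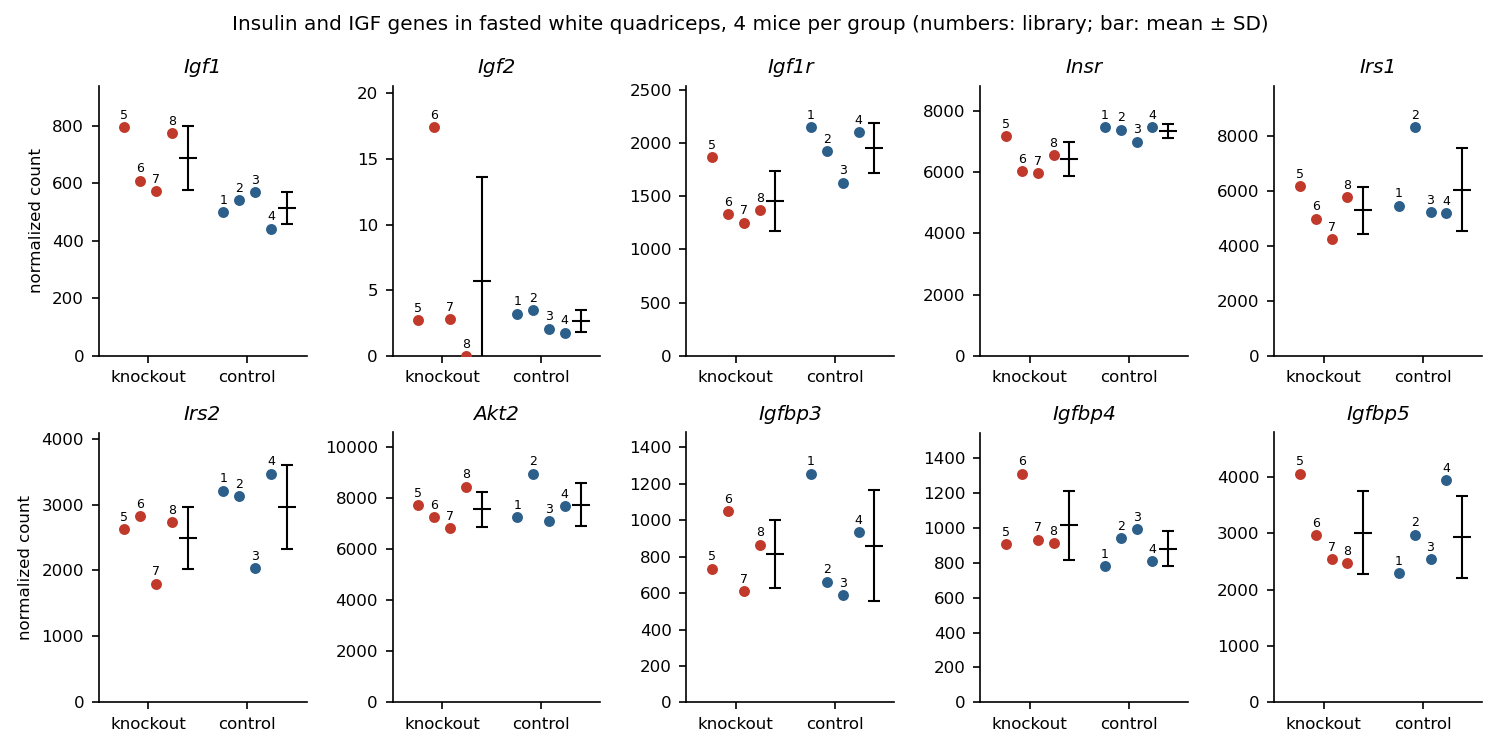
Normalized count of each gene in each library (numbered points; red, Acot2 muscle knockout; blue, floxed control), with the mean and SD of each group of 4 mice beside the points; axes start at 0. Igf1 is the gene whose groups do not overlap, and Igf1r and Insr have 3 of 4 knockouts below every floxed control.

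Among the ligands, Igf1 (GRCm38 chromosome 10, 87858265 to 87937042, plus strand), which promotes growth of muscle fibres and is made by fibres and by cells around them, had higher values in all 4 knockouts than in any floxed control. Its normalized counts were 795, 609, 573 and 773 in knockouts 5 to 8, against 499.6, 542, 569 and 442 in floxed controls 1 to 4. Knockouts 5 and 8 stood well clear, while knockout 7 exceeded floxed control 3 by less than the SD of either group. The means were 688 ± 113 in knockouts and 513 ± 55.6 in floxed controls (SD, n = 4 each), a difference of 0.41 (SE 0.131, 95% interval 0.12 to 0.70). The limma p was 0.0093 before adjustment and 0.746 after adjustment over all genes, and the gene ranked 73 by p among all tested. Groups without overlap in the higher direction were found for 1.13% of all tested genes. Without floxed control 4 and knockout 5, the most alike pair of libraries and for this gene the lowest floxed control and the highest knockout, the difference was 0.27 with an unadjusted limma p of 0.0709. Without knockout 5 alone it was 0.34 (unadjusted limma p 0.027).

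Macrophages are a known source of IGF1 in muscle. Their markers were higher in mean in knockouts, but their summed levels overlapped between the groups. All 10 tested markers of 11 on the list had higher mean log2 values in knockouts, and every adjusted p was at least 0.746. At an unadjusted limma p under 0.05, 5 of them were higher, against 2.47% of all tested genes. Groups did not overlap for 2 of them, against 1.13% of all tested genes in that direction. Their summed level was 3440, 5195, 3649 and 2997 normalized counts in knockouts 5 to 8, against 1735, 3344, 3003 and 3001 in floxed controls 1 to 4. The macrophage marker Adgre1 (F4/80) averaged 127 ± 14.5 normalized counts in knockouts and 67.8 ± 27.5 in floxed controls (SD, n = 4 each), with a difference of 1.02 (SE 0.329). Within the knockouts the order differed: knockout 6 had the largest macrophage sum but the second lowest Igf1, and knockout 8 had the smallest sum but the second highest Igf1. Endothelial markers summed to 9830 to 11804 normalized counts in knockouts and 8618 to 9977 in floxed controls. Of these markers 9 of 11 were higher, 4 at an unadjusted limma p under 0.05, and 2 had groups without overlap. Of the other lists, 10 of 12 fibroblast, 7 of 9 pericyte and smooth muscle, 3 of 5 adipocyte, 5 of 7 satellite cell, 5 of 5 Schwann cell and 0 of 6 tendon markers were higher in mean. The part of these cells in the Igf1 difference was not tested.

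Igf2, the fetal growth factor from an imprinted gene, was near the limit of detection and was not tested in the fit because its mean was under 10 normalized counts. Its recovered reads were 3, 16, 3 and 0 in knockouts 5 to 8 and 3, 4, 2 and 2 in floxed controls 1 to 4. A count of 0 in knockout 8 allows up to 3 reads, or 3.63 normalized counts, and this limit covers counting error only. The log2 difference was 0.17, and the two-sided exact permutation test gave p = 0.77. The highest value came from knockout 6, the library with most Myh3 and Myh8, and the part of regenerating fibres in it was not tested. Without that library the knockouts held 0 to 3 reads. Igf2 shares 3596 exonic bases with the overlapping gene model Gm49394 on the same strand, which was listed at 0 in every library, and the effect of that overlap on its counts was not tested.

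Among the receptors, Igf1r (chromosome 7, 67952827 to 68233668, plus strand), the receptor for both IGFs, had the larger difference. Its normalized counts were 1869, 1332, 1250.3 and 1365 in knockouts 5 to 8, against 2147, 1925, 1626 and 2101 in floxed controls 1 to 4. Knockouts 6, 7 and 8 lay below every floxed control, and knockout 5 lay within the floxed control range. The means were 1454 ± 280.5 in knockouts and 1950 ± 236 in floxed controls (SD, n = 4 each). The difference was -0.43 (SE 0.134, 95% interval -0.73 to -0.14), a percent change of -25.9, with a limma p of 0.0081 before and 0.746 after adjustment. It had the smallest p of the 9 genes and kept its unadjusted p under 0.05 in all 20 alternative settings, where the adjusted limma p ranged from 0.087 to 0.992. The lowest of these came without knockout 5, where the difference was -0.56. That alternative lowered adjusted p-values widely, with 143 of all tested genes at an adjusted p under 0.10, against 1 with all libraries.

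Insr (chromosome 8, 3122061 to 3279617, minus strand), which encodes the insulin receptor, had a smaller difference but little spread among floxed controls. Its normalized counts were 7181, 6030.1, 5975 and 6550 in knockouts 5 to 8, against 7464, 7395, 6993 and 7471 in floxed controls 1 to 4. As with Igf1r, knockouts 6, 7 and 8 lay below every floxed control and knockout 5 did not. Such a placing, with at least 3 of 4 knockouts below every floxed control, was found for 11.1% of all tested genes. The means were 6434 ± 561 in knockouts and 7331 ± 228 in floxed controls (SD, n = 4 each). The difference was -0.19 (SE 0.0807, 95% interval -0.37 to -0.014), with a limma p of 0.037 before and 0.746 after adjustment. The unadjusted p was above 0.05 in 9 of the 20 alternatives, among them 6 of the 8 that left out 1 library.

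Both receptor genes have long transcripts, with 16791 exonic bases for Igf1r and 13746 for Insr, and titin, the longest muscle transcript, separated the libraries in a like way. Titin took 13.9%, 8.67%, 8.34% and 9.22% of normalized counts in knockouts 5 to 8, against 12.8%, 11.8%, 12.2% and 14.9% in floxed controls 1 to 4. Knockout 5 thus sat with the floxed controls for titin, Igf1r and Insr alike. Over the 1265 tested genes with at least 10 kb of exon the median difference was -0.063, with 64.4% of them lower and 8.06% lower at an unadjusted limma p under 0.05. Over the 3757 genes under 3 kb the median was 0.060, with 39.3% lower and 1.89% lower at that p. Igf1, with 9904 exonic bases, falls in the class of 6 to 10 kb, whose median was -0.032. The part of transcript length in the receptor differences was not tested.

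**Figure D3:**
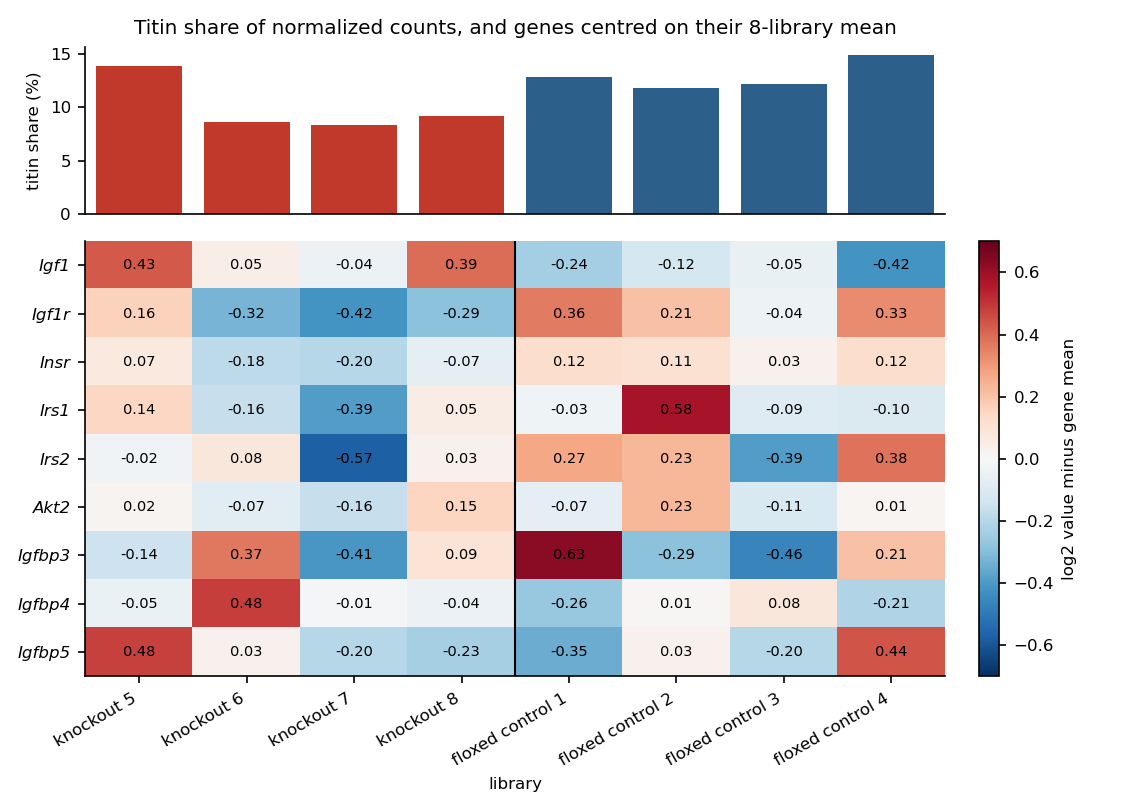
Top, share of normalized counts taken by titin in each library, in percent (red, Acot2 muscle knockout; blue, floxed control). Bottom, log2 value of the 9 tested genes minus the gene's mean over 8 libraries; the Igf1r and Insr rows are below 0 in knockouts 6, 7 and 8, where the titin share was 8.34% to 9.22%.

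The substrates differed by less than the spread between mice. Irs1, which carries the signal of both receptors to phosphatidylinositol 3-kinase, had 6155, 4978, 4249 and 5762 normalized counts in knockouts 5 to 8, against 5449, 8303, 5224 and 5182 in floxed controls 1 to 4. The groups overlapped, and floxed control 2 alone lay far above the other floxed controls. The difference was -0.18 (SE 0.163, 95% interval -0.54 to 0.18; limma p 0.30 before and 0.826 after adjustment), and it was -0.014 without floxed control 2. An antisense gene model, Gm9747, overlaps 2822 exonic bases of Irs1, and it averaged 0 normalized counts in knockouts and 0.435 in floxed controls. The strand setting of the counting is not given in the sources used here, and the effect of this overlap on the Irs1 counts was not tested.

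Irs2, the other main substrate and in liver a gene that insulin represses, had 2624, 2819, 1799 and 2729 normalized counts in knockouts 5 to 8, against 3213, 3129.55, 2033 and 3468 in floxed controls 1 to 4. In each group 1 library was far below the rest, knockout 7 and floxed control 3, and the groups overlapped. The other 3 knockouts lay below the other 3 floxed controls. That placing rests on setting aside libraries by their Irs2 values, and its share over all genes was not computed. The difference was -0.24 (SE 0.182, 95% interval -0.64 to 0.16; limma p 0.21 before and 0.785 after adjustment). It was -0.41 without floxed control 3, with an unadjusted limma p of 0.020 and an adjusted p of 0.7365, and -0.092 without knockout 7. The overlapping antisense model 9530052E02Rik shares 162 exonic bases and averaged 2.52 normalized counts in knockouts and 4.51 in floxed controls.

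Akt2, the AKT isoform most tied to glucose uptake in muscle, had nearly the same level in both groups. It averaged 7557 ± 697.5 normalized counts in knockouts and 7743 ± 845 in floxed controls (SD, n = 4 each), with ranges of 6813 to 8442 and 7082 to 8952. The difference was -0.034 (SE 0.0988), and its 95% interval of -0.25 to 0.18 leaves room for a change of either sign. With libraries scaled to equal totals the difference was 0.0078, so the data give Akt2 no direction.

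**Figure D4:**
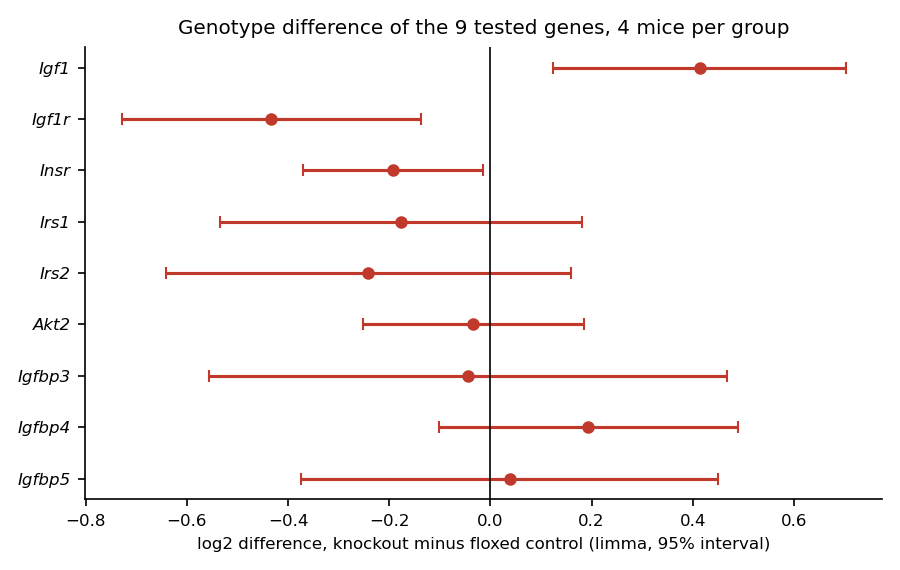
Log2 difference, knockout minus floxed control, of the 9 tested genes with the 95% interval of the limma fit (4 mice per group). The intervals of Igf1, Igf1r and Insr do not cross 0, and those of the other 6 genes do; no adjustment for multiple tests is drawn.

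The binding proteins varied more between mice than between genotypes. Igfbp3, the main carrier of IGFs in blood, had 734, 1049, 609.8 and 865 normalized counts in knockouts 5 to 8, against 1255, 663, 589 and 936 in floxed controls 1 to 4. It had the widest spread of the 9 tested genes, with its highest library at 2.13 times its lowest. Its difference was -0.044 (SE 0.232, 95% interval -0.56 to 0.47), and the sign depended on the libraries included, from -0.20 without floxed control 3 to 0.16 without floxed control 1.

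Igfbp4, which restrains IGF action until the protease pappalysin cuts it, was high in a single knockout. Its normalized counts were 906, 1309, 931 and 911 in knockouts 5 to 8, against 780.5, 941, 992 and 808 in floxed controls 1 to 4. Outside knockout 6 the groups overlapped fully. The difference was 0.19 (SE 0.134, 95% interval -0.10 to 0.49; limma p 0.18 before and 0.765 after adjustment) and 0.065 without knockout 6. Knockout 6 also had the largest summed level of fibroblast markers, at 110105 normalized counts against 63518 to 74884 in the other knockouts and 68491 to 82970 in floxed controls. Its Pappa value, the gene of that protease, was 76.3 normalized counts, with 36.3 to 65.4 in the other knockouts and 25.02 to 64.9 in floxed controls.

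Igfbp5, a binding protein abundant in muscle and its matrix, was highest in 1 library of each group. Its normalized counts were 4054, 2969, 2535 and 2471 in knockouts 5 to 8, against 2287, 2972, 2535 and 3943 in floxed controls 1 to 4. The high libraries, knockout 5 and floxed control 4, were the ones with the largest titin shares. Igfbp5 has 6006 exonic bases. The difference was 0.038 (SE 0.187, 95% interval -0.37 to 0.45; limma p 0.84 before and 0.969 after adjustment). The sign turned to -0.12 without knockout 5, and the group means of 3008 ± 732 in knockouts and 2934 ± 730 in floxed controls (SD, n = 4 each) were close.

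Some of the 9 tested genes shared their lowest library. Knockout 7 had the lowest value of 5 of the 9, both receptors, both substrates and Akt2. It was above the 8-library mean for 0 of the 9, while floxed control 2 was above the mean for 7. Knockout 7 also had the smallest normalized total, 31336090 against 33657381 to 35661396 in the other libraries. Its sum of oxidative-fibre genes was the largest, 103169 against 11034 to 39199. The part of either in its low values was not tested. For likeness, each gene was centred on its mean of 8 libraries and compared with all other tested genes by the root mean square difference of log2 values. This measure is small for genes that vary little, so each value is read against the genes' own spread over the 8 libraries. Among themselves, Insr and Akt2 had the smallest difference (0.135), but their own spreads were 0.125 and 0.124. Igf1r and Insr differed by 0.174, below the spread of Igf1r (0.291) but above that of Insr (0.125). Both were below their means in knockouts 6, 7 and 8. Irs1 and Akt2 differed by 0.165, below the spread of Irs1 (0.263) but above that of Akt2 (0.124). Igf1 and Igfbp3 were farthest apart (0.50), followed by Igf1 and Igf1r (0.48). Igf1r was nearest to the transcription factor gene Elk4 (0.0557), then to Nfix (0.0683) and Rere (0.0697). Insr was nearest to the translation initiation gene Eif4g1 (0.0194), Igf1 to the DNA repair gene Mgmt (0.0871) and Igfbp4 to the receptor kinase gene Axl (0.051). The nearest genes of the others were Mcph1 for Irs1 (0.12), Zswim6 for Irs2 (0.104), Kat8 for Akt2 (0.0508), Lrrc8a for Igfbp3 (0.114) and Trim12a for Igfbp5 (0.0752). Spreads not yet given were 0.271 for Igf1, 0.307 for Irs2, 0.366 for Igfbp3, 0.212 for Igfbp4 and 0.291 for Igfbp5.

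The rest of the pathway was read from 8 lists with 106 other genes, of which 99 were tested. By limma 0 were called after adjustment, 0 were higher at an unadjusted p under 0.05 and 7 were lower. This split moved with the libraries: leaving out knockout 5 gave 5 higher and 7 lower, leaving out floxed control 3 gave 4 higher and 7 lower, and library quality weights gave 3 higher and 6 lower. The total of 7.07% compares with 6.16% of all tested genes, 2.47% higher and 3.70% lower. The median difference was -0.030, with 57 of the 99 lower. With libraries scaled to equal totals the median over all genes was 0.044, so list medians of this size have no firm direction. All 7 had 3 of 4 knockouts below every floxed control, as did Igf1r and Insr. At least 3 of 4 were so placed in 11.1% of all tested genes, and picking genes by a low p favours it. In 6 of the 7 the exception was knockout 5, the knockout nearest to the floxed controls in the chi-square of reads.

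The mTORC1 and mTORC2 list held 5 of the 7, with 15 of 21 tested genes lower and a median of -0.079. Without knockout 6 only Ddit4l of the 5 kept an unadjusted p under 0.05, and without floxed control 2 only Ddit4l and Tsc1 did. In Ddit4l, Eif4ebp2, Tsc1 and Rictor knockout 5 lay in the floxed control range, as it did for titin, and the part of the titin difference in these values was not tested. Ddit4l, a muscle inhibitor of mTORC1, had 5301, 3273, 4079 and 3349 normalized counts in knockouts 5 to 8, against 5968, 5855, 5114 and 5203 in floxed controls 1 to 4. Its difference was -0.49 (SE 0.142; limma p 0.0052 before and 0.746 after adjustment). Eif4ebp2, which blocks the cap-binding factor eIF4E until mTORC1 releases it, differed by -0.37 (SE 0.145), and Tsc1, part of the complex that holds mTORC1 off, by -0.27 (SE 0.0984). Rictor, the defining subunit of mTORC2, differed by -0.22 (SE 0.0913), and Akt1s1, an mTORC1 inhibitor that AKT phosphorylates, by -0.19 (SE 0.0789). Akt1s1 was the exception among the 7, with knockout 8 in the floxed control range. Other inhibitors on the list had no such p, with Tsc2 at -0.090, Deptor at -0.051, Ddit4 at -0.42, Eif4ebp1 at -0.11, Sesn1 at 0.12 and Sesn2 at 0.11. Mtor itself averaged 2484 ± 42.7 normalized counts in knockouts and 2586 ± 226 in floxed controls (SD, n = 4 each).

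In the PI3K and AKT list 12 of 17 genes were lower, and the median difference was -0.079. For glucose uptake and glycogen, 8 of 12 were higher, and the median difference was 0.054. There Gsk3b, a kinase that AKT inhibits and that brakes glycogen synthesis, differed by -0.29 (SE 0.106), while Slc2a4, which encodes GLUT4, averaged 13519 ± 1175 in knockouts and 12708 ± 344 in floxed controls (difference 0.085, SE 0.0848).

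No gene of the other 5 lists had an unadjusted limma p under 0.05. Of FOXO factors and genes that FOXO raises, 11 of 15 were lower with a median of -0.058. The ubiquitin ligase gene Fbxo32 (atrogin-1) lay below every floxed control in all 4 knockouts. Such a placing was found for 1 of the 99 tested pathway genes and for 1.62% of all tested genes. Its normalized counts were 31792 to 37634 in knockouts and 37951 to 39797 in floxed controls. The Fbxo32 difference was -0.18 (SE 0.0897, limma p 0.074 before and 0.746 after adjustment). Adaptors and receptor inhibitors had 8 of 15 lower, with Grb14, an inhibitor of the insulin receptor kinase, at 210 ± 77.1 in knockouts and 135 ± 39.9 in floxed controls (difference 0.60, SE 0.298). The growth hormone axis, which induces Igf1, had 4 of 6 higher, with Stat5b at -0.17 (SE 0.117), and Ghr, the growth hormone receptor gene, at 0.038 (SE 0.0856). Proteases of binding proteins and their inhibitors had 4 of 7 higher, with Pappa at 0.48 (SE 0.346). Of the other ligands, receptors and binding proteins, 6 of 11 were tested and 4 were higher; Igf2r, which clears IGF2, differed by -0.096 (SE 0.0793). The insulin genes Ins1 and Ins2, together with Insrr, Igfbp1 and Igfbp2, were below the filter.

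**Figure D5:**
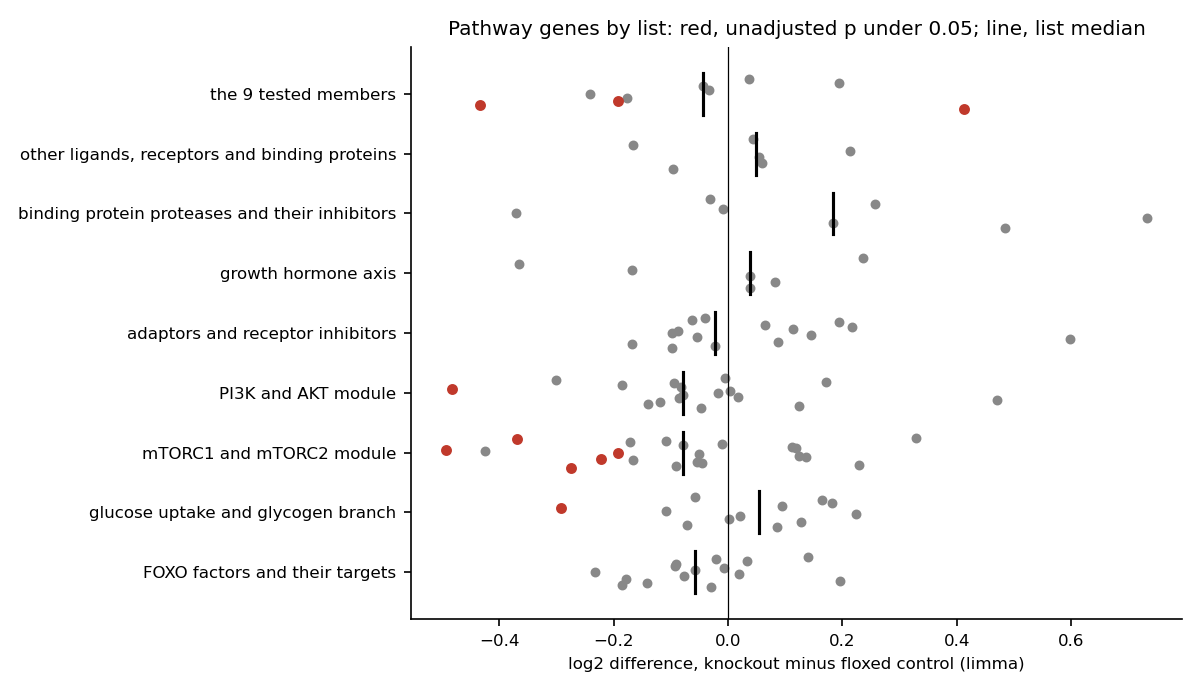
Log2 difference, knockout minus floxed control, of each tested gene in the 9 members and the 8 other pathway lists (1 point per gene; red, unadjusted limma p under 0.05; black line, list median). The 5 red points of the mTORC1 and mTORC2 list all lie below 0, and no point passed an adjusted p of 0.05.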

How the data were processed

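The labels' protocols state column extraction of RNA and stranded TruSeq libraries. STAR, HTSeq, DESeq2, cutadapt, FastQC and GRCm38 are listed, per the submitters' processing notes. Their annotation release, strand setting and filters were not given in the sources used here. Deposited values are log2(n + 1), where n is the count of reads over the library's size factor, as the values themselves show: 100% of values up to 200 reads lay within 0.1 of a whole read. Columns were matched to libraries by the mouse number in their names, and titles give each library its own mouse. The labels name no batch.

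The 13141 genes averaging 10 or more normalized counts entered limma 3.58.1 under R 4.3.3 (lmFit, then eBayes with trend), with Benjamini-Hochberg adjustment over all of them at 0.05. The fit was tested on simulated data. The most alike libraries, knockout 5 and floxed control 4, still had a chi-square of reads of 20.0 per degree of freedom. That is above what sampling noise alone gives, so none was counted as a duplicate. Exon lengths and positions come from GENCODE M21 on GRCm38, and promoters from RefSeq. The 10 genes, the pathway lists and the marker lists were chosen with earlier results of these data known. Named beyond the 10 were pathway genes with an unadjusted p under 0.05, the smallest p of each list without one, and the nearest gene of each member (3 for the member with the smallest p); 1 gene that this rule names is not reported here. Mtor, Tsc2, Deptor, Ddit4, Eif4ebp1, Sesn1, Sesn2, Slc2a4, Ghr, Myh3, Myh8 and Adgre1, and the classes of exon length, were added after values were seen.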

Additional observations from a re-analysis of the deposited data

Results flagged for a closer look

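Each of the 10 genes was checked in both groups of 4 libraries for a single library far from the others, by the gap to its nearest neighbour as a share of the group's range on the log2 scale. Of these 20 groups, 4 passed Dixon's 95% critical value, where chance gives about 1 in 20 groups for independent normal values. The groups came from the same 8 libraries, and the share over all tested genes was not computed, so the count is a description. Igfbp4 stood out for the high value of knockout 6 (share 0.926). Irs2 stood out for the low value of knockout 7 (0.84). Irs1 stood out for the high value of floxed control 2 (0.894), and Insr did so for the low value of floxed control 3 (0.845).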

How the results depend on the processing

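Results were recomputed under 20 alternatives, and 0 of the 9 tested genes had an adjusted limma p under 0.05 in any of them. No paired analysis was made, because the titles and column names state no pairing of mice between the groups. Igf1, Igf1r, Insr, Irs1, Irs2 and Igfbp4 kept the sign of their difference in all 20. The sign turned for Igfbp5 with library quality weights (-0.028), for Akt2 with libraries scaled to equal totals (0.0078) and for Igfbp3 without floxed control 4 and knockout 5 (0.058). Leaving out 1 library at a time gave -0.116 to 0.190 for Igfbp5, -0.088 to 0.038 for Akt2 and -0.205 to 0.159 for Igfbp3. Groups without overlap numbered 1 (Igf1), against 2 with equal totals (Igf1 and Insr), 3 without floxed control 4 and knockout 5 or without knockout 5 alone (Igf1, Igf1r and Insr) and 4 without floxed control 3 (also Irs2), a range of 1 to 4 over single libraries. Over all tested genes such groups numbered 362 with all libraries, 2347 without floxed control 4 and knockout 5, 2127 without knockout 5, 821 without floxed control 3 and 528 to 835 over the single omissions other than knockout 5; the cause was not tested. Pathway genes with an unadjusted p under 0.05 numbered 7, against 11 without floxed control 4 and knockout 5, and 3 (without knockout 6) to 12 (without knockout 5) over single libraries, with 4 without floxed control 2 and 11 without floxed control 3; the cause was not tested. With a covariate for low or high mouse numbers, Igf1r had an unadjusted limma p of 0.0073. High numbers belonged to knockout 8 and floxed control 3, so the groups were balanced for this covariate. It could therefore not move or reverse any difference, and the -0.43 of Igf1r was fixed in advance. Depth limits Igf2, with 0 to 16 reads per library. The limma p-values set each difference against the spread between mice within groups (4 mice each), estimated with the help of all tested genes.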
